A study of Mus musculus with 2 samples.

Results

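Chemokines are small secreted proteins that direct the movement of leukocytes and other cells, and chemokine receptors are the membrane proteins that read them. The genes described here are the 60 rows, of 38355 in a table of adult mouse ventricle, whose symbol starts with Ccl, Cxcl, Cx3cl, Xcl, Ccr, Cxcr, Cx3cr or Ackr followed by a number and at most 1 letter. The symbols took in 39 ligands, 17 receptors and 4 rows of atypical receptors. They hold 58 different symbols, since Ccl25 and Ackr4 each have a pair of gene identifiers. The rule uses symbols and no measured value, but it was set with earlier results of these data known. At least 1 read had been counted for 49 of the 60 in the authors' deposited table, and 24 had a mean normalized count of 10 or more, the level above which differences are described.

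RNA came from cardiac ventricles of C57BL/6 mice aged 16 weeks. The Flox sample carried Tbx5LDN/LDN, and the vTBX5KO sample carried Tbx5LDN/LDN together with Myh6-MerCreMer, a transgene whose cardiomyocyte promoter drives a Cre recombinase that an oestrogen receptor ligand switches on. At 12 weeks of age, mice of both genotypes had TX for 3 days (30 mg/kg per day), and they were killed 4 weeks after that. The labels name 1 sample per genotype, while the deposited comparison of group B with group A rests on 6 libraries, 3 of each letter. Both numbers were inferred from the deposited values, and no label gives them. No source used here says which letter is which genotype, so each difference below is group B relative to group A. Nor is it said whether libraries of the same letter are separate mice, and the spread between libraries on which p-values rest may be technical.

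Chemokines are sorted into the CC, CXC, CX3C and C families by the spacing of their first cysteines. Inflammatory chemokines are induced in macrophages, fibroblasts and endothelium and draw monocytes, neutrophils or T cells, while homeostatic ones such as Cxcl12 are made in resting tissue. Conventional receptors signal through inhibitory G proteins, and atypical receptors bind chemokines without such signalling and clear or redistribute them. In the heart, resident macrophages, fibroblasts and vessel cells are known sources of chemokines, and Ccr2 marks macrophages that descend from blood monocytes.

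Tbx5, the gene targeted in the study, stood in the authors' deposited table at a mean normalized count of 513 and a log2 fold change of 0.92, with an adjusted p of 0.0575. This value over the whole gene does not tell which letter is the knockout. Size factors, the relative depths of the libraries, were 0.607 to 1.16 in group A and 0.891 to 1.56 in group B, numbered from deepest to shallowest within a letter. Whole reads per library were recovered for genes with a mean under 100, which takes in 43 of the 49 members that were read. Within group A, the shallowest library, A3, stood apart from A1 and A2 in some genes. The summed normalized reads of 7 mesothelial markers were 117, 194 and 466 in A1, A2 and A3, against 303 to 402 in group B. The part of these differences in the results below was not tested.

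Of the 60 genes, 11 had no reads in any library, which allows up to 3 counts over the libraries, an allowance that covers counting error only. They were Ccl1, Ccl19, Ccl20, Ccl21a, Ccl21b, Ccl26, Ccl27b, Cxcl11, Ccr4, Cxcr1 and the Ccl25 row ENSMUSG00000055951. Ccl19 and Ccl21a are ligands of Ccr7 that guide dendritic cells and T cells to lymph nodes. Among these, 100% of the stretches of 50 bases of Ccl21b, 98.1% of Ccl27b, 71.6% of Ccl21a and 52.0% of Ccl19 also occur in transcripts of other genes, and reads from such stretches cannot be assigned to 1 gene. Cxcl11, a ligand of Cxcr3, is annotated as a polymorphic pseudogene in GENCODE M21.

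By role, 30 of 39 ligands, 15 of 17 receptors and 4 of 4 rows of atypical receptors were read. Together these are 81.67% of the 60 genes, against 61.19% of all genes in the table. Of the 49 genes, 10 had a mean under 1, 15 a mean of 1 to 10, 18 a mean of 10 to 100, and 6 a mean of 100 or more. The share with a mean of 10 or more was 40% of the chemokine and receptor genes and 37.05% of all genes. Adjusted p-values were present for all 24 of these.

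Levels were compared between genes as the mean normalized count per kb of exon, over all 6 libraries. Cxcl12, the homeostatic ligand of Cxcr4 and Ackr3 that vessel and stromal cells make, was highest at 529 per kb. Ackr3, an atypical receptor that takes up Cxcl12, followed at 358 per kb, and Cxcr4, the signalling receptor for the same ligand, was at 45.6 per kb. Cxcl14 at 134 per kb and Ccl6 at 123 per kb came next to Ackr3, followed by the eotaxin Ccl11 at 85.8 per kb and by Ccl8 at 63.3 per kb. The monocyte ligands of Ccr2 were at 53.4 per kb for Ccl12, 34.2 for Ccl2 and 30.6 for Ccl7. The place of Ccl8 in this order holds for the pooled level only. In group A it was at 36.9 per kb, below Ccl12 at 47.4 and Ccl2 at 37.4, and in group B it was at 89.8 per kb, above Ccl11 at 77.9. Of the receptors after Cxcr4, Ccr1 was at 18.0 per kb, Ccr2 at 13.7 and Cx3cr1 at 8.84. Ccl25, at 2.50 per kb, was the lowest of the 24. For the 6 genes with a mean of 100 or more no spread over libraries could be had, so neighbours in this order cannot be told apart by their error.

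**Figure D1:**
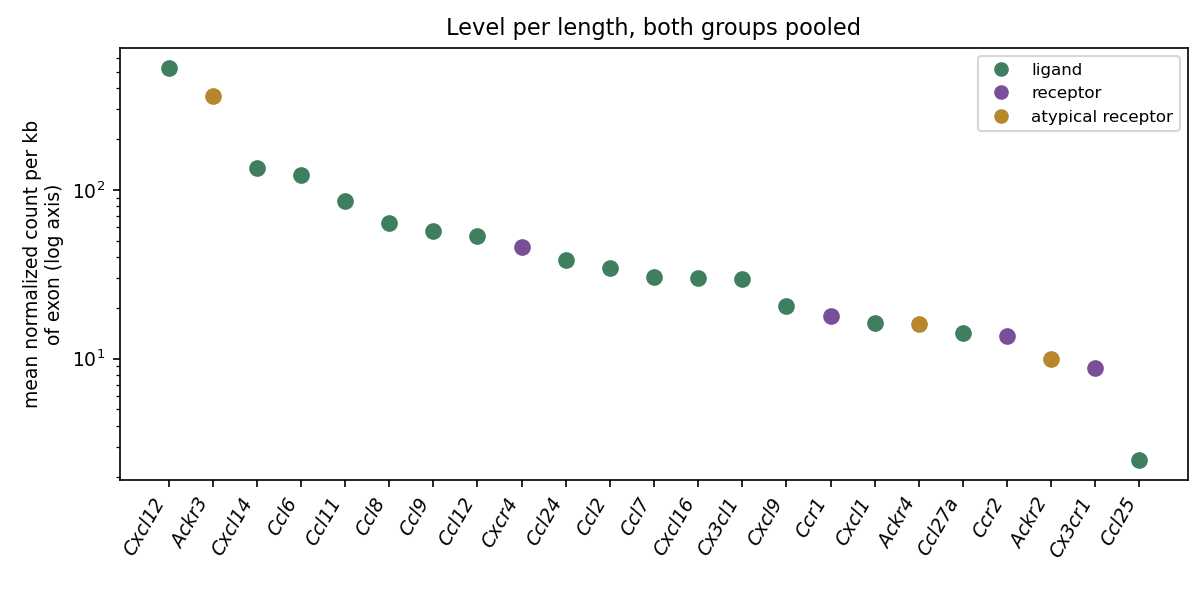
Mean normalized count per kb of exon on a log axis for 23 genes with a mean of 10 or more, pooled over both groups, with the colour giving the role. Cxcl12 (529 per kb) and Ackr3 (358 per kb) lie above all others, and Ccl25 (2.50 per kb) lies lowest.

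Between the groups, the authors' deposited table called 1 of the 24 genes, Ccl8, which rose in group B, and called 0 lower. A call is an adjusted p under 0.05. Of all 13230 genes with an adjusted p, 1.5% were called higher and 2.49% lower, and 1 of 24 and 0 of 24 lie close to these shares. Over the 24 genes the median deposited log2 fold change in the authors' deposited table was 0.12, with 15 above 0 and 9 below. All genes with a mean of 10 or more had a median of 0.006 and 51.05% above 0. Within the range of means from 10 to 100 the medians were 0.12 for 18 chemokine and receptor genes and 0.09 for 3350 genes of any kind. For means of 100 or more they were -0.07 for 6 and -0.02 for 9880 genes. The largest unadjusted p that the deposited adjusted p allows was under 0.05 for 3 genes that were higher, Ccl8, Cxcl9 and Ccr1, and for 2 that were lower, Cxcl14 and Ackr3. Over all 13230 genes this bound was passed by 6.82% that were higher and 8.0% that were lower.

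**Figure D2:**
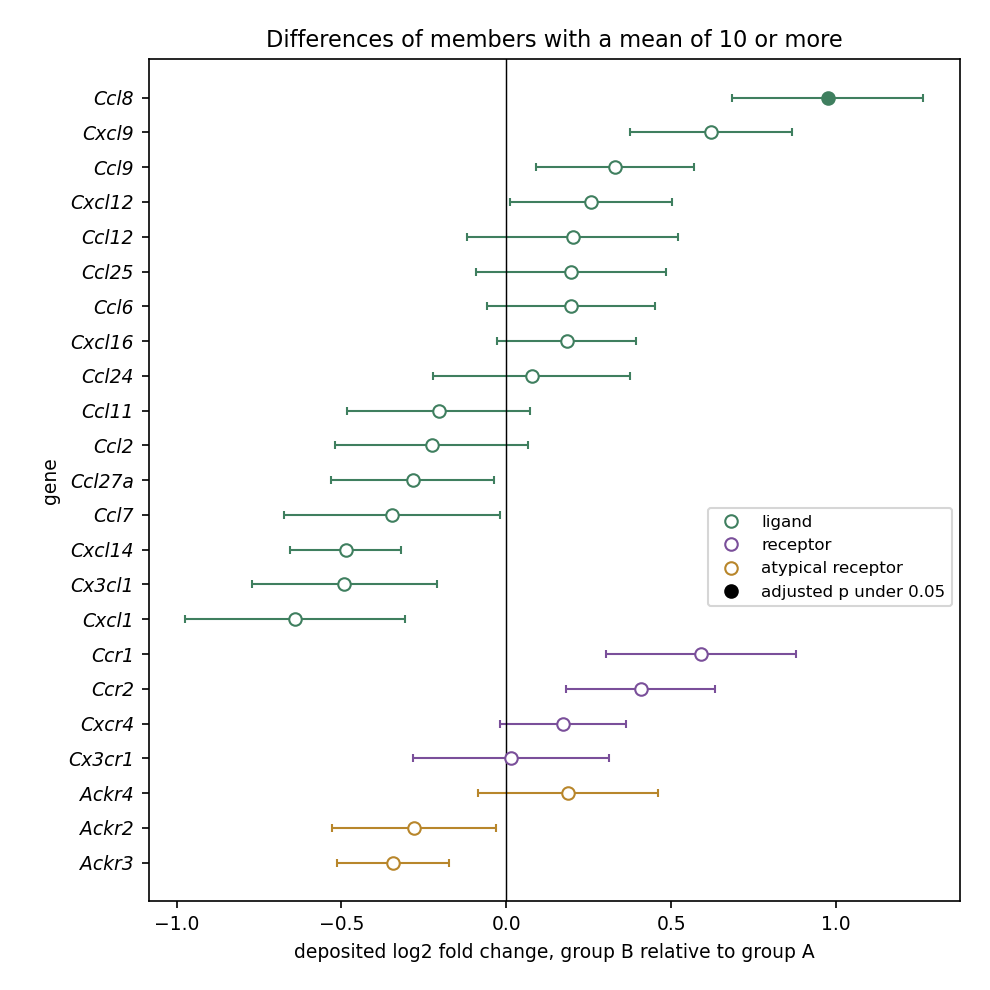
Deposited log2 fold change, group B relative to group A, of 23 genes with a mean of 10 or more, ordered by role. Bars are 1 standard error at its upper bound, and the filled point marks the only gene with an adjusted p under 0.05, Ccl8 at 0.98.

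In the reads recovered per library, 3 of the 18 genes with a mean of 10 to 100 had all libraries of group B above all of group A. They were Ccl8, Cxcl9 and Ccl25. Over all 4125 genes with recovered reads and means in that range this share was 13.3%, that is, close to 3 of 18. Ackr2 alone had all libraries of group B below all of group A, where the share over the same genes was 5.87%. The limma-voom test on recovered reads, adjusted over 5339 genes with a mean of 5 to 100, called 0 of 20 chemokine and receptor genes and 0.487% of all genes. At an unadjusted p under 0.05 it had 3 of the 20, again Ccl8, Cxcl9 and Ccr1, and 13.3% of all 5339 genes, a share near 3 of 20.

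**Figure D3:**
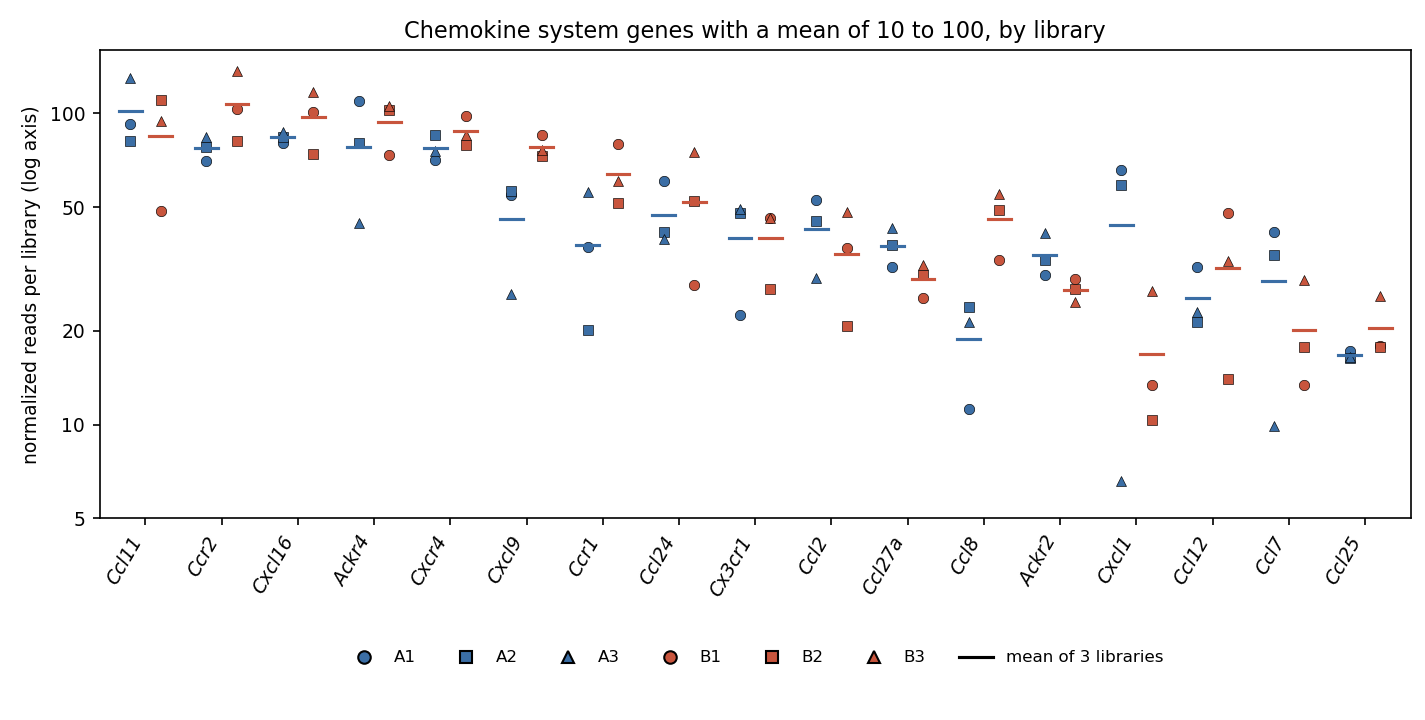
Normalized reads in each library, on a log axis, of 17 genes with a mean of 10 to 100, with lines at the mean of 3 libraries. Ccl8 lies between 11.2 and 23.9 in group A and between 33.9 and 55.0 in group B, while Cxcl1 and Ccl7 are high in A1 and A2 and low in A3.

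Ccl8 (ENSMUSG00000009185) encodes monocyte chemotactic protein 2, which in mouse acts through Ccr8 and is made by macrophages. Its normalized reads were 11.2, 23.9 and 21.4 in A1, A2 and A3 and 33.9, 48.8 and 55.0 in B1, B2 and B3. The groups did not overlap, and the lowest library of group B stood above the highest of group A. The group means were 18.8 ± 6.69 and 45.9 ± 10.9 (SD, n = 3 libraries each), a ratio of 2.43, which lay between 2.03 and 2.81 when any 1 library was left out. In the authors' deposited table the log2 fold change, which is shrunken, was 0.98 (standard error at most 0.29, adjusted p 0.0254). The limma-voom test gave a log2 fold change of 1.33 (standard error 0.35, adjusted p 0.127), so the call was not made by that test, except without B1, where the adjusted p was 0.0350. Over all alternatives of that test it lay between 0.0350 and 0.608.

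The promoters of Ccl8 and of the 3 genes next to it by adjusted p in the authors' deposited table, Cxcl14, Cxcl9 and Ccr1, are shown because these genes carry the one call and the nearest values to it. Each is RefSeq sequence of build GRCm38.p6, from 250 bases before to 50 bases after the start of the gene, written 5′ to 3′ on the strand of the gene. Capitals mark letters found by a search of both strands for the core of the interferon-stimulated response element (GAAANNGAA), the T-box half-site (AGGTGT), the AP-1 site (TGANTCA), the TATA box (TATAAA) and the NF-kB consensus. They lie at chr11:82114935-82115234 on the plus strand for Ccl8 and, on the minus strand, at chr5:92328030-92328329 for Cxcl9, chr13:56296502-56296801 for Cxcl14 and chr9:123968643-123968942 for Ccr1.
Ccl8: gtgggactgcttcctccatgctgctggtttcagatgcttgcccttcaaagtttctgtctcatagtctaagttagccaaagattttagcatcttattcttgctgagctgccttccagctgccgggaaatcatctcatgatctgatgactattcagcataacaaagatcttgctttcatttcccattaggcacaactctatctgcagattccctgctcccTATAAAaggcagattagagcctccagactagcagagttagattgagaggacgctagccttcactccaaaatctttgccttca
Cxcl9: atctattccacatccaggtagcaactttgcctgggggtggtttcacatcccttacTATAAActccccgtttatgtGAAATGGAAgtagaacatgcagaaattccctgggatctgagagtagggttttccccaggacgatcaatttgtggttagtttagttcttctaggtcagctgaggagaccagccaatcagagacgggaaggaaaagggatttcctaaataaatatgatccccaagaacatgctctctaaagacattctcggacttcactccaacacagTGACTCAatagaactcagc
Cxcl14: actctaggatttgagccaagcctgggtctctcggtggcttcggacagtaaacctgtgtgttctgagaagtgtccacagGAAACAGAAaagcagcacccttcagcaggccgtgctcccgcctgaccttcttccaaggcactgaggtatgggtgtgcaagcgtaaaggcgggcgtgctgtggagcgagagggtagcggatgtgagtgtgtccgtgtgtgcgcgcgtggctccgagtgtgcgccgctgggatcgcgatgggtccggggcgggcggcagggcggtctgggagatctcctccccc
Ccr1: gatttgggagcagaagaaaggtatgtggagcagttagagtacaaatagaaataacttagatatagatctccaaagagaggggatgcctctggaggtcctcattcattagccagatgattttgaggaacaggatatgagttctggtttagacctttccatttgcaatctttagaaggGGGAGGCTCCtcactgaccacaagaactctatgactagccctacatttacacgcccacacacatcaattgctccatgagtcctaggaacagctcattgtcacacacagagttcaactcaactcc

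In these windows Ccl8 had a TATA box 32 bases before its start and none of the other letters searched. Cxcl9, a gene known to be induced by interferon gamma, had the response element core 175 bases before its start, a TATA box 195 bases before it and an AP-1 site after it. Cxcl14 had the response element core 172 bases before its start, and Ccr1 had the NF-kB consensus 74 bases before it. RefSeq promoters were matched for 18 of the 24 genes. The response element core was in 3 of the 18 (Ccr2, Cxcl14 and Cxcl9) and in 8.57% of 27025 promoters. The NF-kB consensus was in 4 of the 18 (Ackr2, Ccl9, Ccr1 and Cxcl1) and in 8.18% of all. The T-box half-site was in 1 of the 18, Ackr2, and in 13.9% of all. A TATA box was in 8 of the 18 and in 14.2% of all, and an AP-1 site in 2 of the 18 (Ccl9 and Cxcl9) and in 7.93% of all. A match is a string of letters and not a measured site.

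Ccl8 is the last of 5 CC ligands that follow each other on the plus strand of chromosome 11, in the order Ccl2, Ccl7, Ccl11, Ccl12 and Ccl8, from 82035571 to 82116799 in the coordinates of the table, which match GENCODE M21 on GRCm38. In the authors' deposited table their log2 fold changes in that order were -0.23, -0.35, -0.21, 0.20 and 0.98, with adjusted p-values of 0.834, 0.732, 0.846, 0.880 and 0.0254. Ccl8 was the only one of the 5 that passed the test, and whether its difference exceeds that of its neighbours was not tested. Of all 60 genes, 14 lie on chromosome 11, and 8 of these had a mean of 10 or more.

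Ccl2, Ccl7 and Ccl12 encode ligands of Ccr2 that draw monocytes out of the blood. Ccl2 had normalized reads of 52.8, 45.2 and 29.7 in A1, A2 and A3 and of 37.1, 20.7 and 48.3 in B1, B2 and B3. Ccl7 had 41.5, 35.2 and 9.88 in group A and 13.4, 17.7 and 29.2 in group B. Both were lower in A3 than in A1 and A2, and for both the groups overlapped. Ccl12 had 32.0, 21.4 and 23.1 in group A and 47.9, 14.0 and 33.7 in group B, with the lowest and the highest library both in group B. Over 3 libraries the group means were 42.6 ± 11.8 and 35.3 ± 13.9 for Ccl2, 28.9 ± 16.7 and 20.1 ± 8.15 for Ccl7, and 25.5 ± 5.72 and 31.9 ± 17.0 for Ccl12, each with its SD.

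Ccl11 and Ccl24 encode eotaxins, ligands of Ccr3 that draw eosinophils. Ccl11 had 92.6, 81.7 and 130.1 normalized reads in A1, A2 and A3 and 48.6, 110.1 and 94.3 in B1, B2 and B3. Ccl24, which macrophages make, had 60.6, 41.5 and 39.5 in group A and 28.1, 52.5 and 75.2 in group B. The libraries of both letters interleaved for both genes, and in the authors' deposited table Ccl24 had a log2 fold change of 0.08 with an adjusted p of 0.958. Ccr3 itself had 1 read in B2, 1 in B3 and none in the other libraries.

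Ccl6 and Ccl9, neighbours on chromosome 11 that macrophages make and that act on Ccr1, were among the 6 genes with means of 100 or more. Ccl6 stood in the authors' deposited table at a mean of 221, with a log2 fold change of 0.20 and an adjusted p of 0.836. Ccl9 had a mean of 175 and a log2 fold change of 0.33 in the authors' deposited table (adjusted p 0.605). Neither passed the test.

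Among CXC ligands, Cxcl9, an interferon-induced ligand of Cxcr3 that draws T cells, had 54.5, 56.5 and 26.4 normalized reads in A1, A2 and A3 and 85.0, 73.1 and 76.3 in B1, B2 and B3. The groups did not overlap, and A3 was the lowest library. The means were 45.8 ± 16.9 and 78.2 ± 6.14 (SD, n = 3), a ratio of 1.71, and of 1.41 without A3. In the authors' deposited table the log2 fold change was 0.62 (standard error at most 0.25, adjusted p 0.150), and the limma-voom adjusted p was 0.244. Cxcl10, a ligand of the same receptor, had 3, 3 and 3 whole reads in group A and 16, 3 and 3 in group B, so that B1 alone held more. Its exons overlap those of Art3 on the other strand by 133 bases, and reads of the pair cannot be told apart without strand.

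Cxcl1, a ligand of Cxcr2 that draws neutrophils, showed the widest spread within a group, relative to its mean, of the 18 genes. It had 65.8, 59.0 and 6.59 normalized reads in A1, A2 and A3 and 13.4, 10.3 and 26.9 in B1, B2 and B3. A1 and A2 lay above all of group B, and A3 lay below all of it. The means were 43.8 ± 32.4 and 16.9 ± 8.83 (SD, n = 3), and in the authors' deposited table the log2 fold change of -0.64 had an adjusted p of 0.353. By limma-voom the log2 fold change was -1.23 (standard error 0.65, adjusted p 0.426). Without A3 it was -2.06 (standard error 0.36, adjusted p 0.0289). The ratio of group A to group B was 2.59 with all libraries, 3.69 without A3 and 1.94 without A1.

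The same split of A1 and A2 from A3 was seen in immediate-early genes, chosen here after their values were seen. Egr2, an early transcription factor, had 154.9, 147.0 and 11.5 normalized reads in A1, A2 and A3 and 6.39 to 8.13 in group B. Fosb, a subunit of AP-1, had 41.5, 17.6 and 3.29 in group A and 1.12 to 4.47 in group B. The part of this in the values of Cxcl1 and Ccl7 was not tested.

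Cxcl12 had a mean of 4324 and a log2 fold change of 0.26 in the authors' deposited table (standard error at most 0.25, adjusted p 0.737). Cxcl14, a chemokine of epithelia and fibroblasts, had a mean of 245 and a log2 fold change of -0.49 (standard error at most 0.17) in the authors' deposited table. Its adjusted p there of 0.0751 was the smallest after that of Ccl8. Cx3cl1, a membrane-bound chemokine of endothelium, had a mean of 116 and a log2 fold change of -0.49 in the authors' deposited table (adjusted p 0.427). Cxcl16, the other membrane-bound chemokine, which binds Cxcr6, had 80.5, 84.2 and 87.3 normalized reads in group A and 101.0, 73.9 and 116.7 in group B. Its groups overlapped through B2, and its exons overlap those of Zmynd15 on the other strand by 552 bases.

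Ccl27a and Ccl25 are epithelial chemokines elsewhere, of skin and of thymus and gut, and act on Ccr10 and Ccr9. Ccl27a had 32.0, 37.7 and 42.8 normalized reads in group A and 25.6, 30.3 and 32.6 in group B, overlapping at A1 and B3, and 45.0% of its stretches of 50 bases also occur in other genes. Ccl25 (ENSMUSG00000023235) had 17.3, 16.3 and 16.5 in group A and 17.9, 17.7 and 25.8 in group B. Its groups did not overlap, but B1 and B2 exceeded A1 by less than 1 normalized read, and in the authors' deposited table its adjusted p was 0.866. The exons of Ccl25 overlap those of Elavl1, which had a mean of 949, by 181 bases on the other strand.

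All 5 conventional receptors with a mean of 10 or more had positive log2 fold changes in the authors' deposited table, from 0.01 to 0.59, and none passed the test. The 5 share libraries and in part the cells that carry them, so they are not independent of each other. All 5 had means of 10 to 100, a range where the median over 3350 genes of any kind was 0.09. Ccr1, a receptor of monocytes and neutrophils for Ccl6, Ccl9 and others, had 37.2, 20.1 and 56.0 normalized reads in A1, A2 and A3 and 79.9, 51.7 and 60.6 in B1, B2 and B3. Only A3 reached into the range of group B. The means were 37.8 ± 18.0 and 64.1 ± 14.4 (SD, n = 3), a ratio of 1.70, which was 1.37 without A2 and 2.24 without A3. The adjusted p was 0.303 in the authors' deposited table and 0.262 by limma-voom.

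Ccr2 had 70.1, 77.9 and 84.0 normalized reads in group A and 103.5, 81.3 and 136.9 in group B. B1 and B3 lay above group A and B2 lay within it. The log2 fold change of Ccr2 in the authors' deposited table was 0.41 (standard error at most 0.23, adjusted p 0.402).

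Cxcr4 had 70.9, 85.4 and 75.8 normalized reads in group A and 98.4, 79.1 and 85.3 in group B. The groups overlapped. Cx3cr1, the fractalkine receptor of resident macrophages and patrolling monocytes, had 22.5, 47.7 and 49.4 in group A and 46.0, 27.3 and 46.0 in group B. Its means were 39.9 ± 15.1 and 39.8 ± 10.8 (SD, n = 3), and its deposited log2 fold change in the authors' deposited table was 0.01 (standard error at most 0.30).

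Of the atypical receptors, Ackr3 had a mean of 1198 and a log2 fold change of -0.34 in the authors' deposited table (standard error at most 0.17, adjusted p 0.316). Ackr2, a scavenger of inflammatory CC chemokines, had 30.3, 33.9 and 41.2 normalized reads in group A and 29.4, 27.3 and 24.7 in group B. The groups did not overlap, although A1 and B1 lay less than 1 normalized read apart. Its means were 35.1 ± 5.55 and 27.1 ± 2.36 (SD, n = 3), and the adjusted p was 0.707 in the authors' deposited table. Ackr4, a scavenger of Ccl19, Ccl21 and Ccl25, had 109.9, 80.4 and 44.5 in group A and 73.5, 102.7 and 105.5 in group B under ENSMUSG00000079355. Its exons overlap by 352 bases those of Acad11 on the other strand, a gene with a mean of 6157, so part of these reads may not be its own. The second identifier of Ackr4 (ENSMUSG00000041748) had 3, 2 and 1 reads in B1, B2 and B3 and none in group A.

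**Figure D4:**
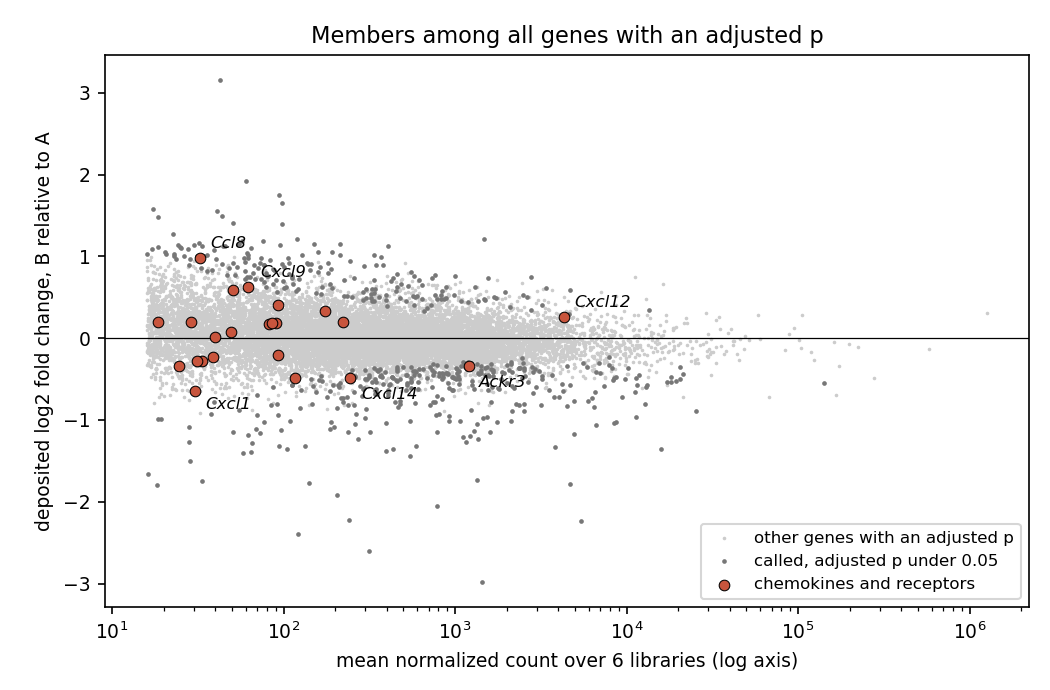
Deposited log2 fold change against the mean normalized count on a log axis for 13229 genes with an adjusted p, with 23 chemokine and receptor genes in colour and called genes in dark grey. The genes in colour lie within the spread of the other genes, from -0.64 for Cxcl1 to 0.98 for Ccl8.

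Below a mean of 10 lie receptors and ligands of lymphocytes and neutrophils, with few reads per library. Among the 15 genes with a mean of 1 to 10, 0 had all libraries of group B above group A, where 10.9% of all genes in that range did. The reverse, with group B below group A, was seen for 4 of the 15, Cxcr2, Cxcl2, Ccl4 and Ccr9, and for 3.97% of all 4279 genes. These comparisons are of normalized reads. In whole reads each of the 4 had a tie between the letters, which only division by the size factors separated. The authors' deposited table gives no adjusted p at these means, so these 4 have no call.

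Cxcr2, the neutrophil receptor for Cxcl1 and Cxcl2, had 4, 6 and 4 whole reads in A1, A2 and A3 and 4, 3 and 2 in B1, B2 and B3. Per unit of depth the rate in group A was 2.32 times that in group B, with a 95% exact counting interval of 0.933 to 6.06. Cxcl2, made by macrophages, had 5, 2 and 3 reads in group A and 0, 2 and 1 in group B. Its rate ratio was 4.96, with an interval of 1.28 to 28.1, and 5.84% of its stretches of 50 bases also occur in other genes. Ccl4, a ligand that macrophages and T cells make, had 2, 2 and 2 reads in group A and 2, 0 and 0 in group B, a ratio of 4.47 (0.798 to 45.2). Ccr9 had 2, 1 and 1 reads against 1, 1 and 1, a ratio of 1.98 (0.336 to 13.5). The 4 were picked because their groups do not overlap in normalized reads. The ratios and intervals, which cover counting error only, therefore describe them and test nothing. Neutrophil markers S100a8 and S100a9 had log2 fold changes of 0.04 and -0.002 in the authors' deposited table, and the summed normalized reads of 9 neutrophil markers were 45.9, 54.0 and 93.9 in group A and 55.0, 96.8 and 60.6 in group B.

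Receptors of T and B cells were read at this level too. Cxcr3, the receptor for Cxcl9 and Cxcl10, had 3, 1 and 1 whole reads in group A and 1, 4 and 2 in group B. Cxcr6, the receptor for Cxcl16, had 6, 1 and 4 against 10, 15 and 5. Ccr7 had 4, 2 and 1 against 11, 3 and 2, and Cxcr5, a receptor of B cells, had 2, 3 and 1 against 10, 7 and 2. The exons of Cxcr5 overlap those of Bcl9l by 110 bases on the other strand. In each of the 4 the groups overlapped once reads were divided by the size factors. The other ligands here were Cxcl5, Ccl28, Ccl5, Cxcl13 and Ccl17, and the remaining receptor was Ccr10, with at most 11 reads in any library.

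**Figure D5:**
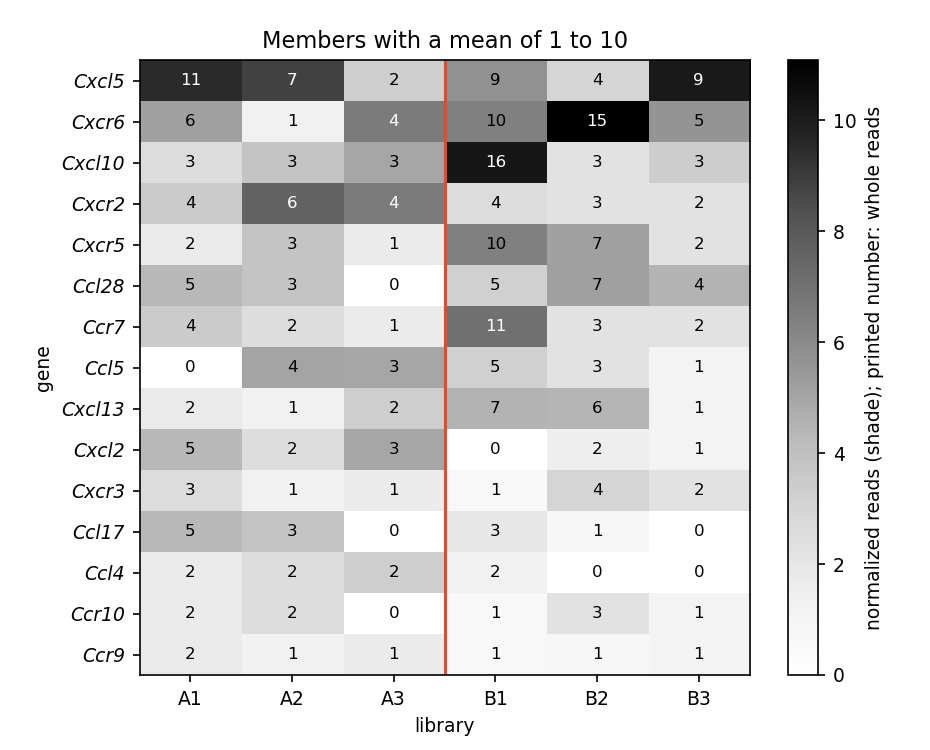
Whole reads (numbers) and normalized reads (shade) in each library for the 15 genes with a mean of 1 to 10, with a line between the letters. Most cells hold fewer than 10 reads, and B1 alone holds 16 for Cxcl10.

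The 10 genes under a mean of 1 had between 1 and 6 reads over all libraries. Ccr8, the mouse receptor for Ccl8, had 1 read in A2 and 1 in B2. Ccl22 and Cxcl3 had 1 read each, in B1, Cxcl15 had 1 in A1 and Cxcl17 had 2 in B2. Xcl1 had 2 reads in A1 and 1 in A2, while Ccr6 had 1 in B1 and 1 in B3. Ccl3, a ligand of Ccr1, had 1 read in A2, 1 in B1 and 2 in B2. These counts are too low for a comparison of the groups and are given as a description.

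Chemokine system genes with other names were led by the platelet chemokines, Ppbp and Pf4, which are stored in platelet granules. The list used for them, which also holds Ackr2 and Ackr4 described above, had 10 genes with an adjusted p. Of the 10, 2 were called higher and 0 lower (all genes 1.5% and 2.49%), with a median log2 fold change of 0.03. Ppbp rose in group B, with 14.7, 26.4 and 42.8 normalized reads in A1, A2 and A3 and 265.2, 144.1 and 90.9 in B1, B2 and B3 and a log2 fold change of 1.65 in the authors' deposited table. Pf4, which macrophages make as well, rose with a log2 fold change of 0.51 in the authors' deposited table (adjusted p 0.00805). All 5 platelet markers with an adjusted p, a list that includes both genes, were called higher (all genes 1.5%). The summed normalized reads of 8 platelet markers were 57.1, 64.1 and 140 in A1, A2 and A3 and 760, 352 and 209 in B1, B2 and B3. Of 6 red cell markers 0 were called in the authors' deposited table, with all 6 above 0 and a median of 0.52. By the largest possible unadjusted p, 3 of the 6 were higher, a bound passed by 6.82% of all genes as higher. The summed normalized reads of the 2 red cell markers with recovered reads were 15.6, 16.3 and 34.6 in A1, A2 and A3 and 105.5, 28.1 and 33.7 in B1, B2 and B3, so that B1 stood highest for platelet and red cell markers alike. The part of blood cells in the values of Ppbp and Pf4 was not tested. In bulk tissue, more cells of a type and more RNA per cell cannot be told apart.

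Of 28 genes of signalling downstream of chemokine receptors, 0 were called in either direction in the authors' deposited table, while 3 were higher and 1 lower at a largest possible unadjusted p under 0.05, a bound passed by 6.82% of all genes as higher and 8.0% as lower. The smallest adjusted p-values among them in the authors' deposited table belonged to Pik3cg, a kinase subunit that G protein subunits activate, with a log2 fold change of 0.57 and an adjusted p of 0.0926, and to Lyn, a Src family kinase, with 0.28 and 0.183. Of 17 genes that induce chemokines or regulate their induction, 1 was called, the interferon regulator Irf7 (all genes 1.5% higher and 2.49% lower). Irf7 rose with a log2 fold change of 0.84 in the authors' deposited table. Csf2, Ifng, Il13 and Il17a had no reads. Of 17 genes of leukocyte adhesion 0 were called, with 4 higher and 1 lower by the same unadjusted bound (all genes 6.82% and 8.0%), and the integrin subunits Itgam and Itgal had log2 fold changes of 0.52 and 0.77 with adjusted p-values of 0.104 and 0.142 in the authors' deposited table. Of 21 genes linked to holding or trimming chemokines at the cell surface, 1 was called, the proteoglycan Gpc1 (all genes 1.5% higher and 2.49% lower). Gpc1 fell by 0.51 on the log2 scale in the authors' deposited table (adjusted p 0.0136). The 5 lists had medians from -0.02 to 0.15.

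Macrophages are a known source of Ccl8, Ccl6, Ccl9, Ccl24 and Cxcl9 and carry Ccr1, Ccr2 and Cx3cr1, so their markers are given beside these genes. Of 17 macrophage markers with an adjusted p, 3 were called higher and 0 lower in the authors' deposited table (all genes 1.5% and 2.49%). They were Mrc1 with a log2 fold change of 0.46, F13a1 with 0.51 and Pf4, which is on the platelet list as well. Of the 17, 15 were above 0, with a median of 0.23, against 0.98 for Ccl8. Among the 15, Cd68 had 0.06 and C1qb 0.04, and the 2 below 0 were C1qc at -0.03 and Cd14 at -0.07. By the unadjusted bound 5 of the 17 were higher and 0 lower (all genes 6.82% and 8.0%). The summed normalized reads of the 4 macrophage markers with recovered reads were 197, 150 and 168 in group A and 210, 203 and 181 in group B. Of 5 monocyte markers 0 were called in the authors' deposited table, with a median of 0.31, and 2 higher and 1 lower by the unadjusted bound (all genes 6.82% and 8.0%). Of 13 markers of T and NK cells 0 had an adjusted p, and their summed reads were 36.3, 49.0 and 47.8 in group A and 51.8, 75.4 and 46.0 in group B. The part of any of these cells in the values of the chemokine genes was not tested.

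Fibroblast and vessel markers are given beside Cxcl12, Cxcl14, Cx3cl1 and Ackr3. Of 11 fibroblast markers 1 was called higher (all genes 1.5%), Mfap5, with a log2 fold change of 0.46 in the authors' deposited table. Their median was 0.26, with 10 above 0. By the unadjusted bound 3 of the 11 were higher and 0 lower (all genes 6.82% and 8.0%). Of 10 endothelial markers 0 were called and 0 passed the unadjusted bound in the authors' deposited table, with a median of 0.01. The same counts of 0 held for 6 lymphatic markers, with a median of 0.05. Of 9 markers of smooth muscle and pericytes 1 was called lower (all genes 2.49%), the potassium channel subunit Abcc9. Abcc9 fell by 0.65 on the log2 scale in the authors' deposited table (adjusted p 0.00144). The median of the 9 was 0.14, with 8 above 0 and Abcc9 alone below. By the unadjusted bound 0 were higher and 1 lower (all genes 6.82% and 8.0%). Heart muscle in the samples was checked by 10 cardiomyocyte markers, among them Ttn, Myl2 and Actc1, which had higher means than any marker of another cell type. No marker of atrium was compared, so the check does not tell ventricle from atrium. Actc1 was the only one of the 10 called (all genes 2.49% lower) and fell by 0.55 on the log2 scale in the authors' deposited table. By the unadjusted bound 0 of the 10 were higher and 3 lower (all genes 6.82% and 8.0%). The part of these cells in the values of the same genes was not tested either.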

How the data were processed

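RNA of mouse ventricles was analysed from 1 deposited table that compares group B with group A. Bowtie2 2.0, DESeq2 and the build mm9 are named in the submitters' processing notes, while the coordinates of 36 of the 60 genes are identical in GENCODE M21 on GRCm38. The method of read counting and the strand setting were not given in the sources used here. Its mean normalized count, a signal over all libraries together, is deposited as the authors made it. The log2 fold change that the authors deposited is a shrunken value, and the adjusted p-value was taken from the authors' table as deposited. No column holds values of a single sample.

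The adjustment was inverted over 13230 genes to find the largest unadjusted p possible for each. The fold change divided by its normal quantile gave the standard error, an upper bound for 10627 genes that share an adjusted p. Whole reads per library were recovered as the set of 6 whole numbers whose normalized mean equals the deposited mean to 15 digits. Exactly 1 set was found for 13385 of 13403 genes with a mean under 100 (99.9%). With means moved by 1e-06, 0 of 2378 genes with a mean of 5 to 20 had a set, and 3 of 20 chemokine and receptor genes with a mean of 5 to 100 did. The recovery was tested on simulated data. Recovered reads were tested with limma-voom (limma 3.58.1, R 4.3.3), two-sided, adjusted by Benjamini-Hochberg over 5339 genes with a mean of 5 to 100. Total reads per library are not known. A log2 ratio of group means used a pseudocount of 1.

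Levels per kb use the union of exons in GENCODE M21, and shared stretches of 50 bases were counted over its transcripts. Named are every gene with a mean of 10 or more, those of mean 1 to 10 whose libraries do not overlap between letters, and up to 4 genes per list by adjusted p. A few others, chosen after their values were seen, are Cxcl10, low receptors, genes read at under a mean of 1, Egr2 and Fosb, and the macrophage markers Cd68, C1qb, C1qc and Cd14. The values of 1 gene are not reported here, and it is left out of the figures and kept in the counts. Genes and lists were chosen with earlier results of these data known.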

Additional observations from a re-analysis of the deposited data

How the results depend on the processing

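In the authors' deposited table the number of chemokine and receptor genes called was 1 at an adjusted p under 0.05, 0 at 0.01 and 2 at 0.1 (Ccl8 and Cxcl14). Adjusted over 11349 genes with a mean of at least 50 it was 0 of 14, a set that does not hold Ccl8. By limma-voom 0 of 20 were called, also with median-ratio size factors and limma-trend, as were 0 of 33 with a mean of at least 1 and 0 of 18 with a mean of at least 10. Leaving out 1 library gave 0 to 1, namely Cxcl1 without A3 and Ccl8 without B1. Over all genes limma-voom called 26, 0 without A1, 0 without A2, 4 without B2, 56 without B1 and 170 without B3. It called 39 with genes of mean 1 or more. The cause of these differences was not tested. The genes counted as read were 49, 45 with reads in at least 2 libraries and 39 with a mean of at least 1. The median difference lay between 0.08 and 0.18 under other limits on the mean. Median-ratio size factors moved the median log2 ratio of 4125 genes by -0.12. Leaving out some library turned the sign of the ratio of Ackr4, Ccl11, Ccl12, Ccl2, Ccl24 and Cx3cr1. No paired analysis was possible because the labels and the table carry no replicate numbers.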

Other observations

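Receptors of 3 ligands described above had few reads, in pairs picked after the values were seen. Ccl8 had 11.2 to 55.0 normalized reads per library while Ccr8, its receptor in mouse, had 2 libraries with 1 read each. Ccl11 and Ccl24 had 28.1 to 130.1 normalized reads per library while Ccr3 had none in group A and 1 read in each of B2 and B3. Reads per library were not recovered for Tbx5, nor for the 6 chemokine and receptor genes with a mean of 100 or more, Cxcl12, Ackr3, Cxcl14, Ccl6, Ccl9 and Cx3cl1.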
